A study of Mus musculus with 42 samples.

Results

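Among cells sorted from the mouse uterus as NK cells, a set of macrophages that carry C1q transcripts was examined. The sort took live CD45+NK1.1+NKp46+ cells of digested uteri from untreated wild-type C57BL/6 females, either virgin or at day 8.5 of gestation (gd8.5), and the study used them to follow how tissue-resident NK cells differentiate in pregnancy. Uteri were pooled within each condition, the cells were labelled with sample tags and mixed, and transcripts were captured on the BD Rhapsody platform as unique molecular identifiers (UMIs), each of which stands for 1 captured RNA molecule. The tags of the cells were not used here, so the 2 conditions form 1 pooled sample with no replicate: virgin and gd8.5 cells could not be compared, no test was possible, and the intervals below are 95% intervals that cover counting error only.

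The members were selected on measured transcripts. Of 15175 cells, 13084 had less than 10% of their UMIs from mitochondrial genes and were kept. Of these, 1396 held at least 5 UMIs of C1qa, C1qb and C1qc together, the genes of the 3 chains of C1q, and 1293 of them also held at least 1 UMI of Ms4a7, Pf4, Aif1 or C3ar1. A UMI of the T cell gene Cd3e, the B cell gene Cd79a or the NK cell gene Ncr1 removed 319 of these, 279 of them for Ncr1 alone. The remaining 974 cells, 7.44% (exact binomial interval 7.0 to 7.91) of the kept cells, are called C1q macrophages here. A further 78 cells met every criterion except the mitochondrial limit.

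Macrophages are phagocytes that take up dying cells, debris and iron-rich red cells, digest them in lysosomes and present peptides to T cells on MHC class II molecules. C1q starts the classical complement pathway and tags dying cells for uptake, and in many tissues its main source is the resident macrophage. In the uterus, macrophages are present before pregnancy and in the decidua, where they lie close to NK cells.

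The values the gate used are given as a description. C1q macrophages held from 5 to 215 C1q UMIs per cell, with a median of 31, and the summed level was 10270 CPM, that is counts per 1000000 UMIs of the group. UMIs count captured molecules and were not divided by transcript length. C1qb stood at 4233 CPM, C1qc at 3822 CPM and C1qa at 2215 CPM. C1q was also detected outside the gate, at 153 CPM in NK cells (Ncr1 at least 2 UMIs, 5243 cells), 604 CPM in B cells (Cd79a at least 2 UMIs, 270 cells) and 265 CPM in T cells (Cd3e at least 2 UMIs, 157 cells). Just inside the threshold, 22 cells with 5 C1q UMIs held Adgre1 at 289 CPM, Apoe at 3069 CPM and the granzyme gene Gzmb at 645 CPM. Just outside it, 23 cells with 4 C1q UMIs held them at 276, 3553 and 4304 CPM. Gzmb fell unevenly across the threshold. Groups of cells with 0 to 4 C1q UMIs held it at 2868 to 4471 CPM, and groups with 5 to 10 at 535 to 3052 CPM. The highest level inside the threshold was that of 22 cells with 6 C1q UMIs. For the second criterion, 55 cells with 1 UMI of the 4 genes held Adgre1 at 313 CPM, and 53 cells with none held it at 156 CPM.

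**Figure D1:**
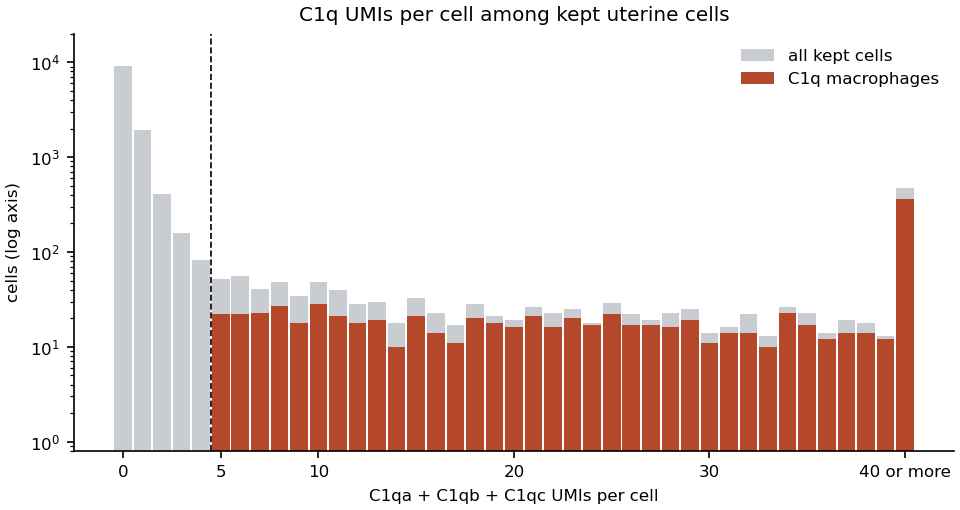
Number of kept cells (log axis) by the summed UMIs of C1qa, C1qb and C1qc in the cell, with all kept cells in grey, C1q macrophages in red and the threshold of 5 UMIs as a dashed line; the last bin holds cells with 40 or more. Most kept cells had few or no C1q UMIs, and the 974 macrophages spread from 5 UMIs upward with a median of 31.

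The macrophages contributed 3614592 UMIs, with 539 to 21326 per cell, a median of 3101 and a median of 1437 genes. The other 12110 kept cells had a median of 4593.5 UMIs, since NK cells were deep at 7380, whereas B cells had 1823.5. Doublets were not removed: the caller marked 0 of the 13084 kept cells and so gave no usable result. Genes of NK cells were detected in many macrophages: 814 of the 974 held at least 1 UMI of Klrb1c, which encodes NK1.1, Gzma, Gzmb or Nkg7. Their summed level was 1164 CPM in the macrophages, 1713 CPM in B cells and 13378 CPM in NK cells. At 1000 UMIs per cell, 4.78% of macrophages and 4.62% of B cells had a Klrb1c UMI. The share with a Gzmb UMI was 39.6% in macrophages and 52.3% in B cells. The part of free RNA or doublets in these transcripts was not tested.

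The macrophage label was checked against genes outside the gate. Adgre1, which encodes F4/80, stood at 666 CPM (640 to 694) in C1q macrophages and 13.9 CPM in the other kept cells, a 48.0-fold ratio (44.6 to 51.6). The other kept cells included the 319 cells that met the C1q and second marker criteria but held an exclusion gene. The 279 removed for Ncr1 alone held 559 of the 1084 Adgre1 UMIs and 7505 of the 15995 Apoe UMIs of the other kept cells. After thinning each cell to 1000 UMIs, 43.7% of 941 macrophages and 1.54% of 260 B cells had an Adgre1 UMI, against 68.4% and 4.44% without thinning. Cd68, a lysosomal glycoprotein of phagocytes, was found in 56.9% of thinned macrophages and 4.23% of thinned B cells. Shallower cells, 33 macrophages and 10 B cells, were left out of the thinned shares. The transcription factor gene Maf was 22.6-fold higher, and the apoptotic cell receptor gene Mertk was 28.1-fold higher at a low level of 50 CPM. Of 18 macrophage identity genes, 14 were higher by 4-fold or more. The 4 that were not were Irf8, at 0.39 of the level of the other cells, and Tyrobp, Fcer1g and Laptm5, genes that NK cells also use. In C1q-low myeloid cells, described below, Adgre1 stood at 179 CPM, and 1 of 14 identity genes tested was higher in C1q macrophages than in them. Csf1r and Lyz2 were not analysed here.

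Across the transcriptome, 10339 genes outside the gate had enough UMIs for a size rule of a 4-fold ratio and 20 UMIs. Of these, 1102 (10.7%) were higher and 465 (4.5%) were lower in C1q macrophages than in the other kept cells, among which NK cells were the largest gated group. Without the 814 macrophages that held NK cell transcripts, 608 of 4747 genes were higher, 553 of them shared with the 1102, and 298 were lower, 180 of them shared with the 465. Among cells of between 200 and 2500 UMIs, the range the study's methods state, 380 of 5884 genes were higher and 307 lower. With no exclusion by Ncr1, Cd3e or Cd79a, 153 genes (1.37%) were lower, 122 of them shared with the 465. The median log2 ratio over all genes with at least 20 UMIs was -0.04. Among the most abundant transcripts were Tmsb4x and Actb, of the actin skeleton, at 18022 and 13103 CPM. They were followed by Cd74, the invariant chain of MHC class II, at 12856 CPM. Apoe, a carrier of lipids, reached 7848 CPM (7757 to 7940) and was 38.3-fold higher (37.5 to 39.0). It was found in 88.6% of macrophages and 10.8% of B cells after thinning.

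**Figure D2:**
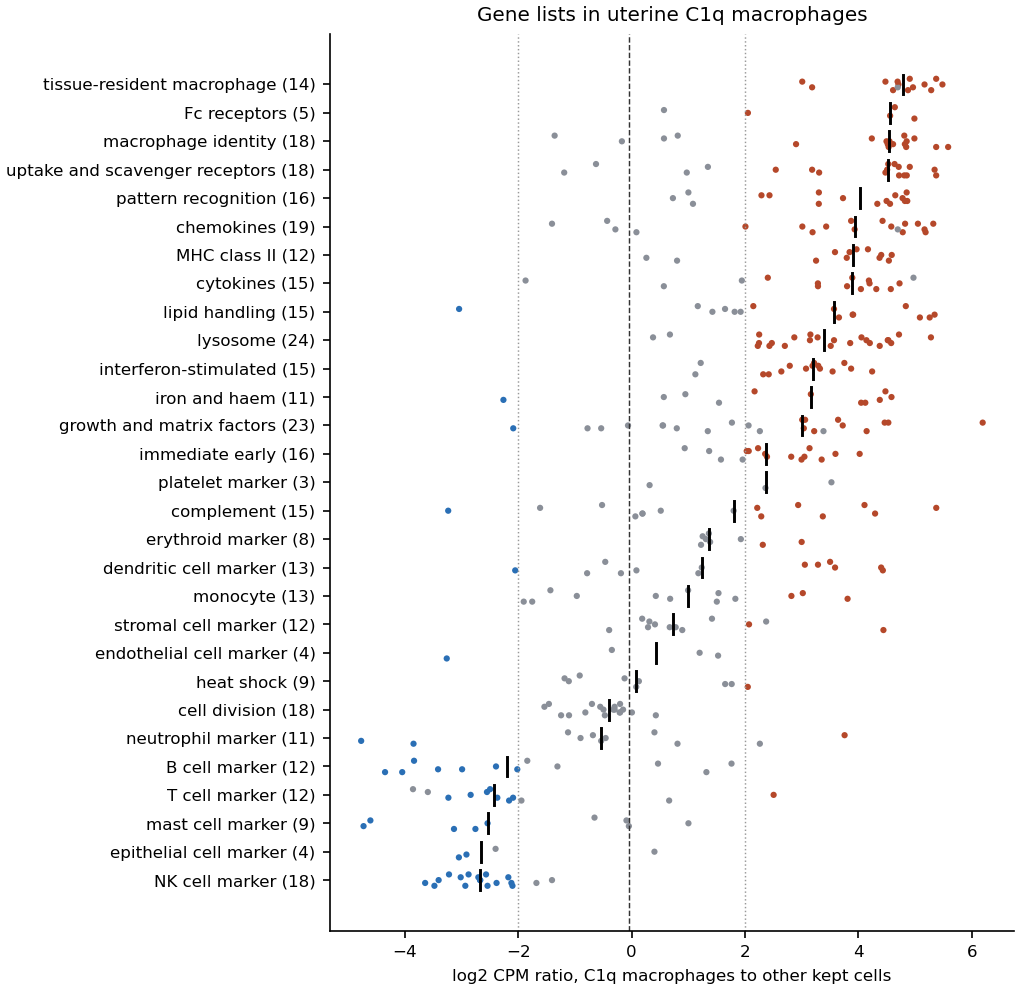
Log2 CPM ratio of C1q macrophages to the other kept cells for each gene of 29 lists with at least 20 UMIs in all (number in brackets), with red and blue for genes 4-fold or more higher and lower that also met the UMI minimum, a black tick at the list median, dotted lines at -2 and 2 and a dashed line at the median of all genes. Tissue-resident macrophage genes have the highest median, 4.79, and NK cell genes the lowest, -2.67.

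Resident macrophage and lysosome genes stood out by their counts. All 13 tissue-resident macrophage genes with enough UMIs were higher by 4-fold or more, with a median log2 ratio of 4.79. Selenop, a secreted selenium carrier, was the most abundant at 3447 CPM and 24.5-fold higher. The mannose receptor gene Mrc1 stood at 650 CPM (41.4-fold), the scavenger receptor gene Stab1 at 575 CPM (30-fold) and the folate receptor gene Folr2 at 213 CPM (44.7-fold). Lyve1, a hyaluronan receptor, was 39.0-fold higher but rested on 56 UMIs in 19 cells. Timd4 and Cd163 were low at 9 CPM each.

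Of 24 lysosome genes, 22 were higher, with a median log2 ratio of 3.4. The saposin precursor Psap, at 5518 CPM, and the proteases Ctsb and Ctss, at 4830 and 4803 CPM, were the most abundant, and the protease Lgmn had the largest ratio of the list at 38.9-fold (36.8 to 41.1). Ctsd, at 443 against 342 CPM, stayed below 4-fold. Of 16 uptake and scavenger receptor genes, 14 were higher, among them Trem2, a lipid receptor, at 245 CPM and 40.6-fold. The exceptions were Scarb2 at 2.54-fold and Itgav at 0.65-fold. All Fc receptor genes except Fcer1g were higher, 4 of 5, from Fcgr3 at 4.14-fold to Fcgr1 at 31.7-fold.

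Lipid and iron genes were mixed. Of 14 lipid handling genes, 9 were higher, including the lipase gene Lpl (33.9-fold) and the phospholipid transfer gene Pltp (28.6-fold). Spp1, which encodes osteopontin and is listed as a lipid-associated macrophage gene, was lower at 268 CPM against 2215 CPM, and NK cells held it at 2483 CPM. Of 11 iron and haem genes, 7 were higher. The ferritin gene Fth1 reached 8113 CPM (4.5-fold), the haem oxygenase gene Hmox1 305 CPM (16.5-fold) and the iron exporter gene Slc40a1 72 CPM (20.8-fold). The transferrin receptor gene Tfrc was lower, at 26 against 125 CPM.

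Antigen presentation genes were abundant. H2-Ab1, H2-Aa and H2-Eb1, which encode MHC class II chains, stood at 8192, 7803 and 6198 CPM, each 20.7-fold to 24.1-fold higher. Of 12 MHC class II genes, 10 were higher, and H2-DMb2 and H2-Ob, at 1.74-fold and 1.2-fold, were not. B cells held Cd74 at 10012 CPM, and 98.8% of thinned B cells and 83.3% of thinned macrophages had a Cd74 UMI.

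Of 14 complement genes outside the gate, 7 were higher. Among these were the receptor gene C5ar1 (41.5-fold), properdin, encoded by Cfp (19.6-fold), C4b (17.2-fold), Itgam (7.66-fold), C1ra (4.88-fold) and C3 (4.64-fold, at only 27 CPM). The decay accelerating factor gene Cd55, an inhibitor of complement, was lower at 45 CPM against 428 CPM.

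Of 17 chemokine genes, 14 were higher. Ccl4 and Ccl3, which attract leukocytes, reached 3198 and 1685 CPM, and Ccl12, Ccl2 and Ccl7, ligands of CCR2, reached 935, 703 and 642 CPM. Of 13 cytokine genes, 11 were higher, led by Il1b at 1486 CPM (19.9-fold) and Tnf at 392 CPM (18.2-fold). Il10, an inhibitory cytokine, was 26.5-fold higher (18.1 to 38.8) but at 18 CPM. After thinning, 62.3% of macrophages and 10.4% of B cells had a Ccl4 UMI, 32.2% and 3.46% an Il1b UMI, and 23.8% and 2.31% a Tnf UMI.

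Sensing and response genes were also higher. The rule was met by 13 of 16 pattern recognition genes (Tlr2 at 29.1-fold), 13 of 15 interferon-stimulated genes (Ifi204 at 18.9-fold, Isg15 at 9.80-fold) and 12 of 16 immediate early genes. Fos, Jun and Zfp36, which respond quickly to stimulation, stood at 2998, 2685 and 3957 CPM. In C1q-low myeloid cells, described below, they stood at 2236, 1655 and 4752 CPM. Of 9 heat shock genes, only Hspa1a met the rule, at 4.14-fold. None of 18 cell division genes did in either direction. Their list summed to 1504 against 2114 CPM, while Mki67 was at 142 against 106 CPM.

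Of 18 growth and matrix factor genes with enough UMIs, 11 were higher. The largest ratio was that of Mmp13, a collagenase, at 73.2-fold (51.3 to 106), which rested on 139 UMIs in 34 cells. Plau, a plasminogen activator, was 22.1-fold higher at 214 CPM, and Igf1 8.05-fold higher at 91 CPM. Vegfa was at 79 against 31 CPM, below the rule, and the protease gene Adam8 was lower.

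Markers of other cells were counted beside these. The gate had removed cells with a UMI of Ncr1, Cd3e or Cd79a. Low levels of NK, T and B cell genes were thus in part selected for. Klrb1c, Gzma, Gzmb and Nkg7 summed to 7740 CPM in the 279 cells removed for Ncr1 alone, against 1164 CPM in the macrophages. Of 18 NK cell genes, 16 were lower and none was higher. T cell genes gave 7 lower and 1 higher of 10, the higher one being Cd4 at 21 CPM, a gene that macrophages can also transcribe. B cell genes gave 7 lower of 11, and all 5 mast cell genes with enough UMIs were lower. Neutrophil genes were almost absent, with 5 of 12 at 0 UMIs and S100a8 and S100a9 at 2 and 1 UMIs, and the only higher one was Csf3r at 59 CPM. No platelet gene had enough UMIs for the rule: 5 of 8 were at 0, and the list summed to 4.43 against 1.24 CPM. Dendritic cell genes were higher for 6 of 11, namely Mgl2, Batf3, Sirpb1c, Clec9a, Wdfy4 and Siglech. Monocyte genes were higher for 3 of 12, namely Ms4a4c (14-fold), Thbs1 and Fn1. Of endothelial and epithelial genes, only Pecam1, Epcam and Cdh1 had enough UMIs, and each was lower. Stromal genes were higher for 2 of 8, Bmp2 and Acta2, and erythroid genes for 2 of 8, among them Hba-a2, which was lower once 14 macrophages with at least 20 haemoglobin UMIs were left out.

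Some transcripts came from very few cells. Haemoglobin genes gave 13057 UMIs in the macrophages, and 9 cells held 90% of them. Of the 970 UMIs of Col1a1, a collagen gene, 8 cells held 90%. Retnla, a secreted protein of alternatively activated macrophages, had a 52.3-fold ratio to the other kept cells, yet its 970 UMIs lay in 25 cells, 10 of which held 90%. By contrast, the cells needed for 90% of the UMIs numbered 559 for Apoe, 553 for Ctsb and 448 for Adgre1. Other genes among the 25 largest ratios were Cp, which encodes the copper carrier ceruloplasmin, at 44.5-fold and the myeloid receptor gene Fcrls at 45.5-fold.

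A closer comparison was made with other myeloid cells of the sort. These were 158 kept cells with at most 1 C1q UMI, no UMI of the 3 exclusion genes and at least 5 UMIs of Spi1, Cd68, Cd14, Clec7a and Sirpa together, with a median of 2963 UMIs. They are called C1q-low myeloid cells, and they included cells with monocyte, dendritic cell and neutrophil transcripts. Of 10143 genes tested outside both gates, 250 (2.46%) were higher and 294 (2.9%) were lower in C1q macrophages, and the median log2 ratio of all genes was 0.06. A lower call asks for 20 UMIs expected in the macrophages, so some rested on few UMIs in the C1q-low cells, as few as 4. With every cell weighted equally, 423 were higher, 201 of them shared with the 250, and 314 lower. With a gate of at least 3 UMIs for the myeloid genes, 246 cells took the place of the 158, and 129 of the 250 higher genes and 231 of the 294 lower genes remained.

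Several genes of resident macrophages were higher in C1q macrophages than in the C1q-low cells. Ccl8, a chemokine of resident macrophages, gave 939 UMIs in the macrophages and 1 UMI in the C1q-low cells, a ratio of 148 with a wide interval (26.5 to 5852). Folr2 was 40.5-fold higher (13.8 to 197), against 3 UMIs. Cbr2 was 12.4-fold, Gas6, a bridge between dying cells and their receptors, 11.5-fold, Stab1 10.2-fold, Selenop 5.53-fold and Mrc1 4.81-fold higher. Thus 7 of 13 resident macrophage genes were higher, and Timd4 was lower (9 against 39 CPM). F13a1 (1.3-fold) and Clec10a (0.99-fold) met the rule in neither direction. Markers of stromal cells moved with them: 6 of 8 were higher, at a summed 747 against 142 CPM, and their part in the other ratios was not tested. Of these, Col1a1 (6.95-fold) had 90% of its UMIs in 8 macrophages, whereas Bmp2 (7.36-fold, against 3 UMIs) had them in 60.

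Outside the resident list, Apoe was 4.37-fold (4.11 to 4.66) and the cholesterol exporter gene Abca1 4.5-fold higher. Ccl7 and Ccl12 were 6.30-fold and 5.66-fold higher, Blvrb, a haem degradation enzyme, 5.5-fold, and C4b 4.15-fold. C4b was the only higher one of 14 complement genes tested, and C5ar1 was at 2.72-fold. The complement list summed to 1772 CPM in C1q macrophages and 1876 CPM in C1q-low cells. Il10 was 10.2-fold higher, with 65 UMIs against 1 and an interval from 1.77 to 411. Other large ratios were those of Retnla (38.2-fold), Cp (20.4-fold), the insulin-like growth factor carrier gene Igfbp4 (20.0-fold) and Nxpe5 (21-fold). Haemoglobin genes, led by Hbb-bt (153-fold) and Hbb-bs (78.2-fold), and Alas2, the enzyme that starts haem synthesis, were also among the 10 largest ratios. Without 14 macrophages with at least 20 haemoglobin UMIs the log2 ratio was -0.37 for Hba-a1 and -0.64 for Alas2. Outside cluster 8, described below, macrophages held Hbb-bt at 8.4 CPM and Hbb-bs at 29.8 CPM, against 3.5 and 17.6 CPM in C1q-low cells.

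Genes of monocytes and dendritic cells went the other way. Ly6c2, which marks classical monocytes, stood at 588 CPM in C1q macrophages and 3911 CPM in C1q-low cells (ratio 0.15, 0.14 to 0.16), and Plac8 at 536 against 3311 CPM. Of 13 monocyte genes, 6 were lower, whereas Ccr2, the receptor that brings monocytes into tissue, was at 1000 against 1238 CPM. Of 13 dendritic cell genes, 9 were lower, among them Cd209a (4.4 against 342 CPM) and Ccl22 (6.9 against 332 CPM). Of 9 neutrophil genes, 8 were lower. Retnlg and Mmp9 had 0 UMIs in the macrophages, where 3 UMIs would have been 0.83 CPM, and S100a9 had 1 UMI. When 7 C1q-low cells with at least 5 UMIs of S100a8 and S100a9 were left out, 276 genes were lower, 268 of them shared with the 294.

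Many macrophage genes did not separate the groups by this rule. Of 14 macrophage identity genes outside both gates, 1 was higher and 0 were lower, at a summed 13168 against 11406 CPM. Adgre1 was at 3.72-fold (3.05 to 4.58), below the rule. Cd74 was at 0.91 (0.89 to 0.93), H2-Aa at 1.00 (0.97 to 1.03) and H2-Eb1 at 1.05 (1.02 to 1.09) of the C1q-low level, and no MHC class II gene was higher. Only H2-DMb2 and H2-Ob were lower, but the list had a median log2 ratio of -0.50, and H2-Ab1 was at 0.86 (0.84 to 0.89). None of the 15 interferon-stimulated, 16 immediate early or 5 Fc receptor genes met the rule. The interferon-stimulated list summed to 4325 CPM in C1q macrophages and 5668 CPM in C1q-low cells. Of 15 pattern recognition genes, 0 were higher and 2 were lower, at a summed 984 against 1245 CPM. Of 23 lysosome genes, only Atp6v0d2 did, as lower, and with C1q-low cells chosen by Ms4a4c and Ms4a6c its log2 ratio turned to 0.29. Ctsb (2.44-fold) and Lgmn (2.75-fold) had intervals above 2. Il1b was at 1486 against 3254 CPM, a ratio of 0.46 (0.43 to 0.48), and Tnf at 392 against 363 CPM.

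**Figure D3:**
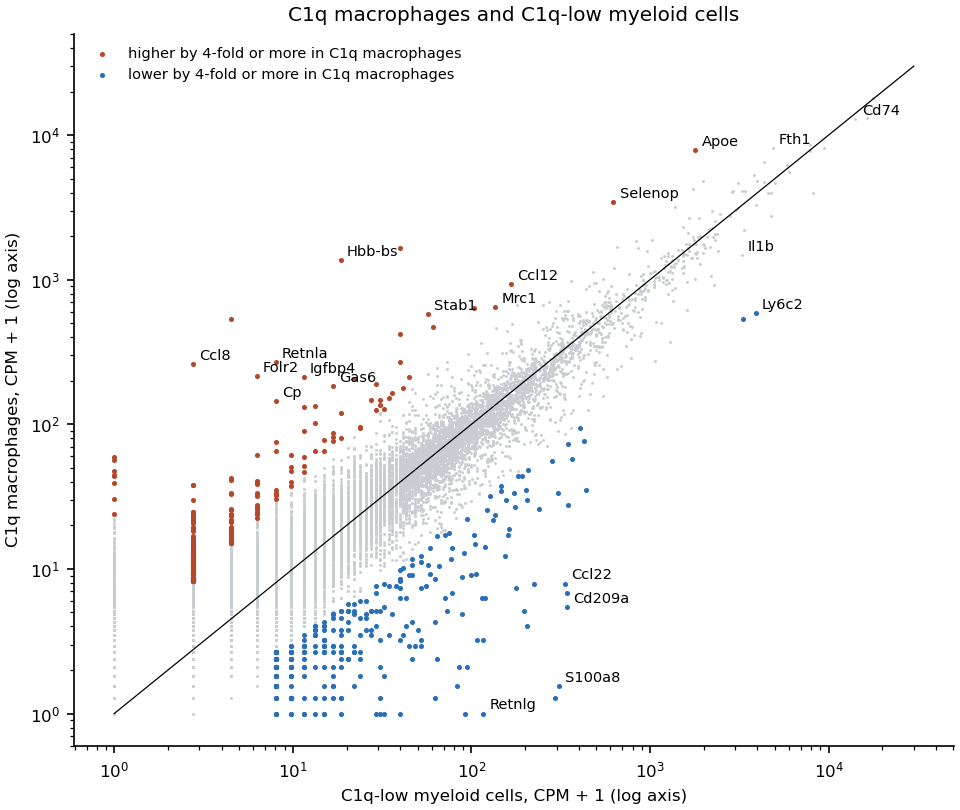
CPM plus 1 of each tested gene in C1q macrophages (vertical, log axis) against C1q-low myeloid cells (horizontal, log axis), with red and blue for the 250 genes higher and the 294 lower by 4-fold or more in C1q macrophages and a line at equal levels. Ccl8, Folr2, Stab1, Selenop and Apoe lie above the line, Cd74 lies close to it, and Ly6c2, Cd209a, Ccl22 and S100a8 lie below it.

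The macrophages were not uniform, and MHC class II spread widely among them. The summed level of Cd74, H2-Aa, H2-Ab1 and H2-Eb1 had a median of 31203 CPM per cell, a 5th percentile of 226 CPM and a 95th percentile of 97851 CPM. In 32 cells (3.29%) none of the 4 was detected. The 244 cells at or below the 25th percentile had a median of 31.5 UMIs of C1q, which the gate had selected on, and the 244 at or above the 75th had 30.

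**Figure D4:**
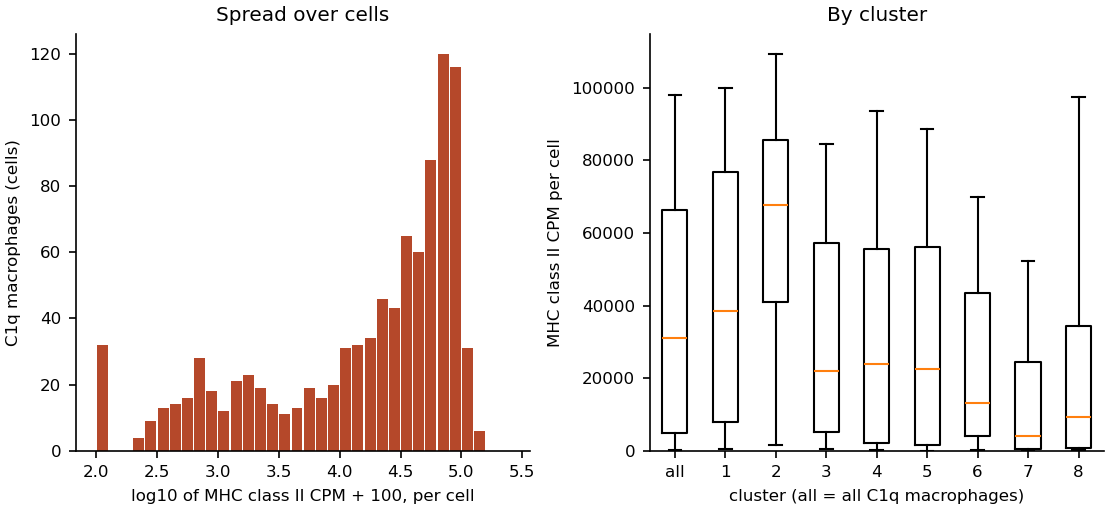
Left, number of C1q macrophages by log10 of the summed CPM of Cd74, H2-Aa, H2-Ab1 and H2-Eb1 plus 100. Right, the same CPM per cell in all macrophages and in each cluster, with boxes from the 25th to the 75th percentile, the median as a line and whiskers from the 5th to the 95th. Some cells have 0 CPM, and cluster 2 has the highest median, 67738 CPM, and cluster 7 the lowest, 4110 CPM.

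The cells at both ends of this spread were compared, a split chosen after the spread had been seen. Median depth was 3163.5 UMIs at the low end and 2832.5 at the high end, and the median mitochondrial share was 3.96% and 2.48%. Of 6858 genes outside the gate and the 4 chosen genes, 162 (2.36%) were higher and 64 (0.933%) lower in the MHC class II low cells.

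On the low side were 5 of 12 resident macrophage genes and 10 of 18 cell division genes. None of 16 tested NK cell markers met the rule, but their list was also higher there, at a summed 2624 against 1662 CPM with Klrb1c at 3.74-fold, and its part in these ratios was not tested. Folr2 stood at 339 CPM in low cells and 80.2 CPM in high cells, a 4.22-fold ratio (3.21 to 5.63). Cbr2 was 9.03-fold (5.83 to 14.7), Gas6 7.37-fold (5.24 to 10.6) and Stab1 4.03-fold (3.45 to 4.73) higher. Lyve1 gave 39 UMIs in low cells and 0 in high cells, a 10.1-fold ratio to a floor of 3 UMIs over the group, with an interval from 7.85 upward. The other resident genes did not meet the rule, among them Clec10a at 0.69 of the high level. Of the cell division genes, Mki67 stood at 244 against 41.4 CPM (5.89-fold). Slc40a1 had 162 UMIs against 3, a ratio of 42.1 (14.1 to 206), in 13.5% and 1.23% of the cells. Erythroid genes were higher for 7 of 8, with Hba-a2 at 0.31 of the high level. Hba-a1 was found in 9.84% of low and 10.7% of high cells and Hba-a2 in 2.46% and 0.82%, and 9 of all macrophages held 90% of the haemoglobin UMIs.

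On the high side were 4 of 6 tested MHC class II genes outside the chosen 4. Lists of cytokines gave 2 of 10 genes there and chemokines 2 of 16, with 1 chemokine gene on the low side. No immediate early gene met the rule, but their list summed to 14635 CPM in low cells and 29509 CPM in high cells. Dendritic cell markers also lay there: 3 of 6 tested (Clec9a, Ccl22 and Sirpb1c) were lower in low cells, at a summed 182 against 502 CPM over the 13 markers, and their part in these ratios was not tested. Ciita, the master activator of MHC class II, gave 5 UMIs in low cells and 179 in high cells. H2-DMa and H2-DMb1, which load peptides, were at 0.17 and 0.077 of the high level. Il1b stood at 348 CPM in low cells and 3567 CPM in high cells, a ratio of 0.097 (0.087 to 0.109), and Ccr2 at 397 against 1652 CPM. Vegfa was at 4.03 against 154 CPM. Selenop (0.91, 0.87 to 0.96) and Trem2 (1.18, 0.97 to 1.43) were close to equal, whereas Apoe and Adgre1 were at 0.44 and 0.50 of the high level.

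The macrophages were also clustered, without the gate genes, into 8 clusters that are described by number. Their genes are a description, since the same genes formed the clusters. Cluster 2 (172 cells, 17.7%) was led by Il6 and Ccl22, in few cells each, and by Vegfa. Its most abundant leading gene was Il1b, at 4798 CPM against 682 CPM in the other macrophages and in 84.3% of its cells. The prostaglandin enzyme gene Ptgs2 was 6.91-fold and the inflammasome gene Nlrp3 6.45-fold higher there. This cluster also had the highest MHC class II.

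Cluster 3 (171 cells) held monocyte genes: Ly6c2 stood at 2233 against 217 CPM in 39.2% of its cells, and Plac8 at 1341 CPM. Other leading genes included Slfn4, at 859 against 143 CPM, and Ifi205 (7.93-fold). The monocyte list summed to 6473 CPM there and 3388 CPM in all macrophages, and the interferon-stimulated list to 6583 and 4325 CPM. Cluster 4 (137 cells) held resident macrophage genes. Folr2 was 7.05-fold higher than in the other macrophages and was found in 73.7% of its cells, F13a1 at 554 against 59.0 CPM, Cbr2 at 556 against 60.3 CPM, and Ccl8 at 940 CPM. Selenop reached 6480 CPM, and cluster 4 had the highest median of C1q UMIs, 44. Retnla was at 1426 against 77.1 CPM, in 7.3% of its cells.

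Cluster 5 (109 cells) was led by Ch25h, a cholesterol hydroxylase (7.03-fold), Nes and Plau (4.27-fold), with Uhrf1, Mcm3, Pold1, Prim1 and Cdt1, genes of DNA replication, also among its 10 leading genes, and with Ccl4 at 5903 CPM and Tnf at 851 CPM. Cluster 7 (66 cells) held cell division genes such as Foxm1, Prr11 and Aspm, with Mki67 at 914 CPM in 84.8% of its cells and the lowest MHC class II. Cluster 1 was the largest (221 cells) and the shallowest, with a median of 1959 UMIs. Its leading genes were matrix genes, known from stromal cells, that few cells carried: 1 cell held 92.1% of its Eln UMIs and 56.0% of its Col1a1 UMIs. NK cell markers summed to 4603 CPM in cluster 1, against 11517 CPM in cluster 6 and 1052 to 1695 CPM in the other clusters.

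Transcripts of lymphocytes and red cells led the remaining clusters. Cluster 6 (86 cells, 8.83%) held Cd7 at 25.9-fold, Klrb1c at 332 against 16.6 CPM, Nkg7 at 1054 CPM and Gzmb at 2205 CPM, and its 10 leading genes held the NK cell genes Klrb1f and Klrc2 as well as the T cell genes Cd3g, at 21.6-fold on 21 UMIs, and Tcf7, which NK cells also use. It kept Adgre1 at 347 CPM, in 60.5% of its cells, and had the lowest median of C1q UMIs, 18. Cluster 8 (12 cells) held haemoglobin, with Hba-a1 at 106470 CPM and Hbb-bs at 88556 CPM. Its Adgre1 level rested on 27 UMIs in 83.3% of its cells, with 44.4% of these UMIs in 1 cell. Slc40a1 was at 1349 CPM in 50% of its cells, with 43.2% of its UMIs in 1 cell. Whether these cells are doublets or single cells was not tested.

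**Figure D5:**
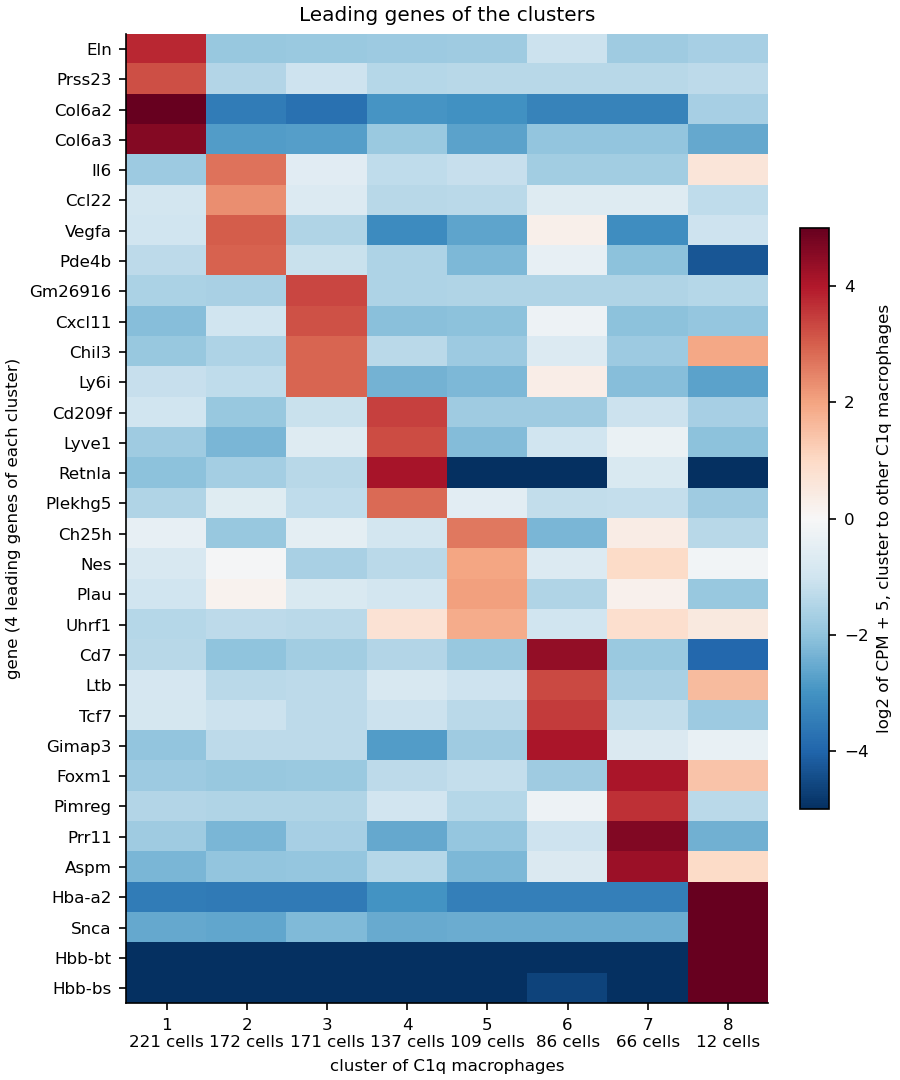
Log2 ratio of CPM plus 5 in each cluster to the other C1q macrophages (colour) for the 4 leading genes of each of 8 clusters, with the number of cells under each cluster. The haemoglobin genes of cluster 8 stand out most and the leading genes of cluster 5 least.

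In the bulk libraries of the series, which were sorted as trNK cells, C1q transcripts were scarce. The 12 libraries of freshly sorted uterine trNK cells, from virgin mice and from gd6.5 and gd8.5, had 0.527 to 19.8 CPM of C1q, here counts per 1000000 reads of the library, with a median of 2.26. Both libraries of the trNK_CB_int group, at 19.8 and 12.9, were the highest. Of 22 libraries from the culture experiments, 4 were labelled as 0 h. By the methods, the culture medium held IL-15. Cells of the time course were cultured with or without IL-21. Those of the other culture were controls or received IL-21, with or without the STAT3 inhibitor Stattic. Of these 22, 3 had any C1q read, and the highest had 0.157 CPM. Adgre1 reached at most 3.94 CPM in the fresh libraries and 0.0332 CPM in those of the culture experiments.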

How the data were processed

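Single cells were sorted, tagged and mixed by the authors, who, by the methods, ran the WTA pipeline of BD Rhapsody against GRCm39. What the authors deposited are unnormalized UMI counts, in 2 tables that share all 15175 cell numbers and hold different genes (35237 in all), joined here by cell number. The bulk files the authors deposited are raw read counts per gene; the processing notes name HISAT2 2.1.0 and featureCounts.

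The analysis ran in Python 3.11.15 (scipy 1.17.1, scanpy 1.11.5, igraph 0.11.9). UMIs were summed over the cells of a group and scaled to CPM. A gene was called higher at a ratio of at least 4 with at least 20 UMIs in the macrophages, and lower at a ratio of at most 0.25 with at least 20 UMIs expected there. Intervals are exact (Poisson for sums, conditional binomial for ratios, Clopper-Pearson for shares). A count of 0 was set to a floor of 3 UMIs for ratios. The ratio and thinning steps were tested on simulated data. Clusters came from Leiden (resolution 0.5) on 20 components of 1000 variable genes with 15 neighbours. Scrublet was run and doublets were not removed.

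The members and all 29 gene lists were chosen with earlier results of these data known. Named genes are list members, the 25 highest and 10 lowest ratios to the other cells, the 15 most abundant genes, the 10 highest and lowest ratios to C1q-low myeloid cells, and the 10 leading genes per cluster. Of 408 listed genes, 22 were not analysed here, and some others are counted with their list but not reported by name. One of them, Lyz2, was to define the C1q-low myeloid cells, and 5 other myeloid genes, chosen after the data had been seen, took its place. Alternatives changed the gate, the depth limits, the weighting of cells, the size rule and the cluster settings. The 2 conditions were not separated, and no p-value was computed.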

Additional observations from a re-analysis of the deposited data

How the results depend on the processing

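The share of macrophages, 7.44% of kept cells, was 6.59% with at least 10 C1q UMIs, 6.89% with a mitochondrial limit of 5%, 6.93% with no such limit, 8.46% among cells of between 200 and 2500 UMIs, the range the methods state, and 9.88% with no exclusion genes. Against the other kept cells, the 1102 higher and 465 lower genes became 380 and 307 in that UMI range (365 and 157 shared with the full set), 608 and 298 without the 814 macrophages that had a UMI of Klrb1c, Gzma, Gzmb or Nkg7 (553 and 180 shared), 1985 and 1608 at a ratio of 2, and 679 and 236 at 100 UMIs. With no exclusion genes, 153 were lower. With every cell weighted equally, 7.85% of the 10339 genes were higher, against 10.7%. The other alternatives gave 1083 to 1156 higher and 408 to 494 lower. Fewer cells leave fewer genes with enough UMIs, 5884 in the UMI range and 4747 without NK transcripts, against 10339.

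Against C1q-low myeloid cells, the 250 higher genes became 423 with every cell weighted equally and 1096 at a ratio of 2, where 892 were lower. With C1q-low cells chosen by Ms4a4c and Ms4a6c (189 cells), 121 of the higher and 173 of the lower genes remained. Resolution 0.3 gave 4 clusters in place of 8, and the adjusted Rand index to the 8 clusters was 0.264 to 0.573 over the 4 other settings. At resolution 0.3, clusters 1, 3, 4, 5 and 8 lay almost wholly in 1 cluster of 667 cells, and with 2000 variable genes most of cluster 8 lay in one of 201 cells. Clusters 6 and 7 kept at least 86.4% of their cells together under the 4 other settings, and clusters 1, 3 and 5 kept 43.0%, 47.4% and 46.8% under the setting that split them most.

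Directions turned for few genes. In the UMI range of the methods, the log2 ratio to the other cells was -0.10 for Rsad2, -0.32 for Klf2 and -0.61 for Hba-a2. Without the 14 macrophages with at least 20 haemoglobin UMIs, it was -4.26 for Hba-a2, and against C1q-low cells -0.37 for Hba-a1 and -0.64 for Alas2. Other C1q-low gates turned Lum (-0.30), Atp6v0d2 (0.29) and Clec4d (0.18). With every cell weighted equally, the list medians turned to -0.084 for heat shock, -0.28 for stromal and -0.26 for erythroid genes. The cause was not tested. Lyz2 of at least 10 UMIs was not run. No paired analysis was possible because the cells form 1 pooled sample. Depth limits what can be read from genes under about 20 UMIs.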
